A study of Mus musculus with 12 samples.

Results

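Timmdc1, Rbm45, Hyi and Fam81a are 4 genes that lie outside chromosome 8 and whose levels in mouse pancreatic islets moved alike in both comparisons of islets without the protease BACE2 with islets that have it. They were selected on those same differences, so the differences are described here and not tested, and they are no independent evidence. Each gene had 1 probe set with that single symbol, so 4 of the 45141 probe sets on the array, and 4 of the 12825 genes that passed a filter on low levels, are described. All 4 genes passed the filter. Their Entrez Gene identifiers are 76916 for Timmdc1, 241490 for Rbm45, 68180 for Hyi and 76886 for Fam81a. No member had a second probe set with that single symbol against which its values could be checked. Probe sets with several symbols or not listed were not searched for the members.

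Levels were measured on 12 arrays, 3 for each of 4 genotypes. Wild-type islets are called WT. The hIAPP group was transgenic for human islet amyloid polypeptide, the peptide that forms amyloid in islets. The BACE2-KO group lacked BACE2, an aspartyl protease that beta cells make, and the hIAPP/BACE2-KO group combined the transgene with the loss of BACE2. All mice were 12 weeks old and ate standard chow, and the labels name the strain B6;129P2-Bace2tm1Bdes/J for all groups, WT included. The promoter that drives the transgene, whether the groups were littermates and whether mice were pooled for an array could not be read from the labels. The loss of BACE2 and any genetic background bred along with it cannot be told apart. The p-values take in only the spread from array to array, which may be technical.

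The 4 genes belong to different pathways. TIMMDC1 is a protein of the inner mitochondrial membrane that helps to assemble complex I, the first enzyme of the respiratory chain; beta cells depend on this chain to turn glucose into the ATP signal that releases insulin. RBM45 is an RNA-binding protein found in the inclusions of some motor neuron diseases, and it has been described as a partner of KEAP1, the protein that holds the stress factor NRF2 in check. HYI is a putative hydroxypyruvate isomerase, named for a bacterial enzyme that interconverts hydroxypyruvate and tartronate semialdehyde, and the RefSeq annotation of the C57BL/6J genome lists mouse Hyi as a transcribed pseudogene. FAM81A is a coiled-coil protein described at the postsynaptic density of neurons. In RefSeq, Timmdc1 lies on chromosome 16, Rbm45 on chromosome 2, Hyi on chromosome 4 and Fam81a on chromosome 9.

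The promoters of the members are shown as description only. Timmdc1 and Fam81a were higher and Rbm45 and Hyi lower without BACE2, and shared regulation was not tested. Each window runs from 250 bases before to 50 bases after the start of the gene in RefSeq on build GRCm38.p6, printed 5′ to 3′ on the gene's strand. Capitals mark CCGGAAG, the core bound by ETS transcription factors, on either strand. The entry for Timmdc1 is chr16:38522614-38522913 on the minus strand, for Rbm45 chr2:76369734-76370033 on the plus strand and for Fam81a chr9:70141508-70141807 on the minus strand.
Timmdc1: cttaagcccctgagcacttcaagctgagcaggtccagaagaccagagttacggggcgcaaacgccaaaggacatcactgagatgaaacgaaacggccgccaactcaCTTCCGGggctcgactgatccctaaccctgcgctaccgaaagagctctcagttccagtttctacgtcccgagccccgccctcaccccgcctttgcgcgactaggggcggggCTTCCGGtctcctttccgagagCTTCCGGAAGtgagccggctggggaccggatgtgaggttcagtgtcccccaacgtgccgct
Rbm45: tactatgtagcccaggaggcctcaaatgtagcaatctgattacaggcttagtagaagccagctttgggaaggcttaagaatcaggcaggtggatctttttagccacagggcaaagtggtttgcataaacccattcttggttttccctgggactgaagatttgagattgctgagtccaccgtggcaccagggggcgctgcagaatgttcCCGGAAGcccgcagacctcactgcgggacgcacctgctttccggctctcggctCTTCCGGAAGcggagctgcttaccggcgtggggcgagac
Fam81a: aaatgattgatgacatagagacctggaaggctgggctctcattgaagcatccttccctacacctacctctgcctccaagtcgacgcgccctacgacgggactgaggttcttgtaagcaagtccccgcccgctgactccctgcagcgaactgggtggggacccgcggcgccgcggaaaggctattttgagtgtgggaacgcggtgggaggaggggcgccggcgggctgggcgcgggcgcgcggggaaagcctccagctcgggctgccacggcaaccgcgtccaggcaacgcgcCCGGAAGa

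The ETS core occurred 4 times in the Timmdc1 window, with matches beginning at -144, -33, -11 and -8 from the gene start. The last pair overlaps, because the letters read alike on both strands. Rbm45 had 3 matches, at -42, 12 and 15, of which the last pair overlaps in the same way. Fam81a had 1 match, at 43. The motif was chosen after these promoters were read, so its presence in 3 of 3 windows is a description only. Of 32851 promoters of the same length, 8.86% held it, and of the 8607 whose GC content lay between those of the members (55.3% to 65.7%) 15.5% did. The GC box GGGCGG was found 2 times in Timmdc1, 1 time in Fam81a and not in Rbm45, against 35.7% of all promoters. Other motifs, each read on both strands, were in none of the 3 windows: the CCAAT box (in 37.4% of all promoters), the TATA box TATAAA (13.6%), the CREB core TGACG (20.8%), the E-box CACGTG (7.15%), the NRF1 motif GCGCATGC (2.71%) and the NRF2 core TGACNNNGC (12.4%).

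The islets carried the hormone genes that define them. Ins2, the insulin gene of beta cells, stood at log2 levels of 13.93 to 14.03 over the 12 arrays, and Gcg, which encodes glucagon in alpha cells, at 13.05 to 13.22. RNA of acinar (exocrine) cells was present too and varied between arrays. The mean of the 10 acinar markers ran from 8.68 to 10.68 in WT and 9.39 to 10.4 in BACE2-KO. It ran from 9.41 to 9.98 in hIAPP and 9.21 to 9.97 in hIAPP/BACE2-KO. Of 10 marker lists for islet and other pancreatic or blood cells, 9 overlapped between BACE2-KO and WT in their mean level per array, and 9 between hIAPP/BACE2-KO and hIAPP. The exceptions were the 4 alpha-cell markers, at 9.09 to 9.38 in BACE2-KO against 8.85 to 9.05 in WT, and the 3 lymphocyte markers, at 4.76 to 4.97 in hIAPP/BACE2-KO against 5.09 to 5.42 in hIAPP. Their part in the members' differences was not tested. In RNA from whole islets, fewer cells of a type and less RNA per cell cannot be told apart. Bace2 itself measured 11.09 ± 0.16 in WT and 10.94 ± 0.08 in BACE2-KO (log2 level, SD, n = 3), with a difference of -0.15 (SE 0.10). Whether its probes lie within the deleted part of the gene is not known here, so this value does not check the genotypes.

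Timmdc1 was higher in all islets without BACE2. Its log2 levels were 6.77, 6.63 and 6.66 in the WT arrays and 8.26, 8.10 and 8.30 in the BACE2-KO arrays. With the transgene they were 6.31, 6.68 and 6.62 in hIAPP and 7.59, 7.76 and 7.93 in hIAPP/BACE2-KO. The lowest array without BACE2 lay 0.82 above the highest array with it. The difference was 1.53 on the log2 scale (SE 0.12, 2.895-fold) in BACE2-KO against WT, and 1.22 (SE 0.12, 2.335-fold) in hIAPP/BACE2-KO against hIAPP. Timmdc1 was the only member in which the 2 groups without BACE2 did not overlap: the lowest BACE2-KO array was 0.17 above the highest hIAPP/BACE2-KO array.

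Rbm45 had the opposite direction. Its log2 levels were 7.65, 7.63 and 7.51 in WT and 6.03, 6.12 and 6.23 in BACE2-KO. In the transgenic groups they were 7.39, 6.91 and 6.72 in hIAPP and 6.21, 6.25 and 6.21 in hIAPP/BACE2-KO. Islets without BACE2 were lower on every array, by at least 0.47, and both groups without BACE2 overlapped. The hIAPP arrays had the widest spread of any group and member (SD 0.35, n = 3), while those of hIAPP/BACE2-KO had the narrowest (SD 0.02, n = 3). The difference was -1.47 (SE 0.15, 2.77-fold lower) in BACE2-KO against WT and -0.78 (SE 0.15, 1.72-fold lower) in hIAPP/BACE2-KO against hIAPP. The latter depended on the hIAPP arrays, running from -0.93 without hIAPP replicate 3 to -0.59 without hIAPP replicate 1.

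Hyi was also lower without BACE2. Its log2 levels were 5.85, 5.71 and 5.70 in WT and 5.03, 4.69 and 4.97 in BACE2-KO. They were 6.11, 6.38 and 6.39 in hIAPP and 4.85, 4.67 and 4.85 in hIAPP/BACE2-KO. The highest array without BACE2 lay 0.67 under the lowest array with it, the groups without BACE2 overlapped, and every hIAPP array was above every WT array. The difference was -0.86 (SE 0.14, 1.81-fold lower) in BACE2-KO against WT and -1.503 (SE 0.14, 2.835-fold lower) in hIAPP/BACE2-KO against hIAPP.

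Fam81a was higher without BACE2 too. Its log2 levels were 4.65, 4.72 and 5.09 in WT and 5.62, 5.78 and 6.05 in BACE2-KO. They were 4.84, 4.63 and 4.70 in hIAPP and 5.83, 5.79 and 5.92 in hIAPP/BACE2-KO. The groups fell into 2 separate levels, since WT and hIAPP overlapped, BACE2-KO and hIAPP/BACE2-KO overlapped, and a gap of 0.53 lay between. The difference was 0.997 (SE 0.16, 1.995-fold) in BACE2-KO against WT and 1.12 (SE 0.16, 2.18-fold) in hIAPP/BACE2-KO against hIAPP.

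**Figure D1:**
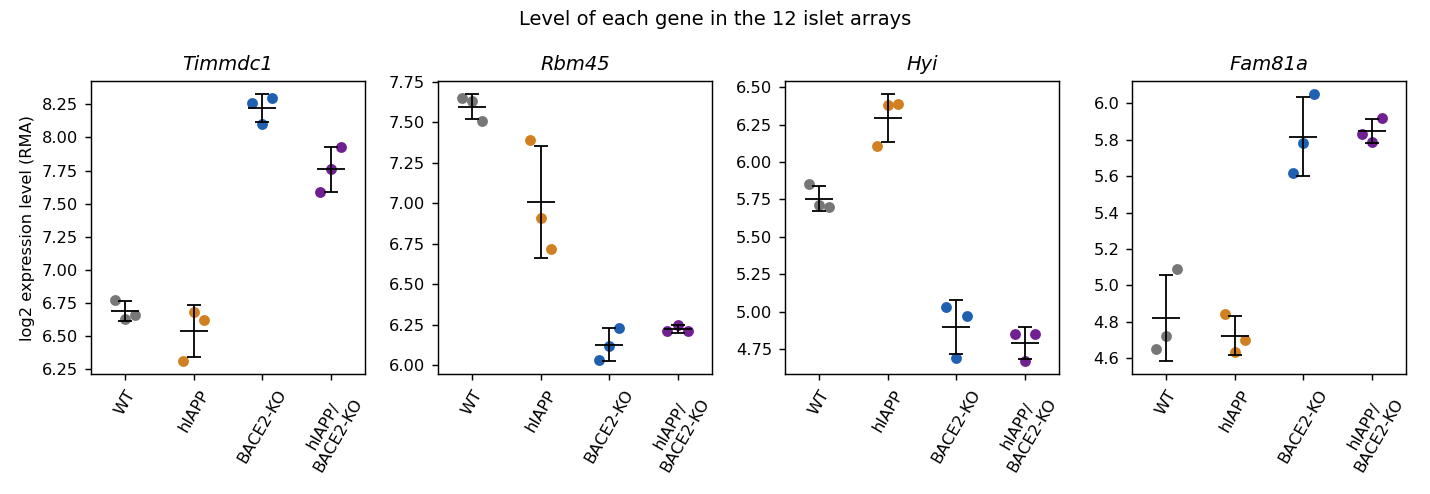
The log2 expression level (vertical axis, a separate scale for each gene) is plotted by genotype for the 4 genes; each point is 1 array, the long bar is the group mean and the whiskers are 1 SD (n = 3). In each panel the 6 arrays without BACE2 stand apart from the 6 arrays with it, by 0.82 for Timmdc1, 0.47 for Rbm45, 0.67 for Hyi and 0.53 for Fam81a.

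The order of the group means, with neighbours whose arrays overlapped, was as follows. For Timmdc1 it ran from hIAPP (6.54) and WT (6.69), which overlapped, to hIAPP/BACE2-KO (7.76) and then BACE2-KO (8.22). For Rbm45 it ran from BACE2-KO (6.13) and hIAPP/BACE2-KO (6.22), which overlapped, to hIAPP (7.01) and WT (7.60), 0.12 apart at their nearest arrays. For Hyi it ran from hIAPP/BACE2-KO (4.79) and BACE2-KO (4.90), which overlapped, to WT (5.75) and hIAPP (6.29), 0.26 apart at their nearest arrays. For Fam81a it ran from hIAPP (4.72) and WT (4.82) to BACE2-KO (5.82) and hIAPP/BACE2-KO (5.85), with overlap within each pair.

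Because the members were selected on these differences, their calls are read against the background without drawing anything from them. A gene is called at an adjusted p under 0.05 over all genes tested. In BACE2-KO against WT 4 of 4 members were called, against 0.125% of all genes, and in hIAPP/BACE2-KO against hIAPP 3 of 4, against 0.101%; Rbm45 was the member not called there. Over the alternative settings in which each was tested, Hyi was called in BACE2-KO against WT in 9 of 23 and Fam81a in 13 of 23, and in hIAPP/BACE2-KO against hIAPP Fam81a was called in 17 of 23 and Rbm45 in 1 of 24. In the difference averaged over both transgene states, 4 of 4 were called, against 0.92%. The arrays of the 4 members did not overlap in either comparison, which held for 12.9% of all genes in BACE2-KO against WT, for 11.1% in hIAPP/BACE2-KO against hIAPP and for 2.18% in both in the same direction. Over all genes, 7 were called in both comparisons in the same direction. Of these, 4 lie on chromosome 8, and the other 3 are Timmdc1, Hyi and Fam81a.

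By the size of their differences alone, without regard to the spread, the members are not the most extreme genes outside chromosome 8. When the 7460 such genes with the same sign in both comparisons were ranked by the smaller of their 2 differences, Timmdc1 stood at place 12, Fam81a at 24, Hyi at 37 and Rbm45 at 50. Next after Rbm45, whose smaller difference was -0.78, came Niban1 (1.10 and 0.76), Pla2g2d (-0.76 and -0.82) and Ugt8a (0.76 and 1.15).

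**Figure D2:**
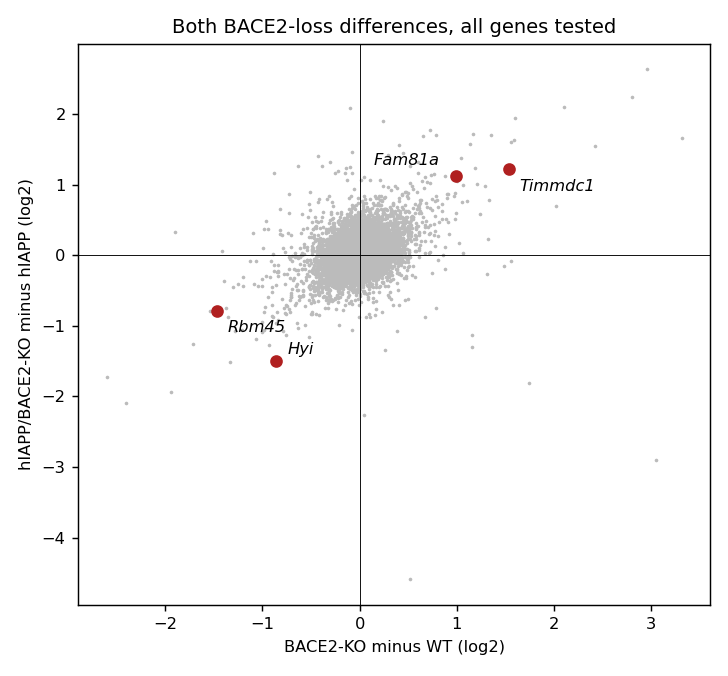
Each grey point is 1 of the 12825 genes tested, with its log2 difference in BACE2-KO against WT (horizontal axis) and in hIAPP/BACE2-KO against hIAPP (vertical axis); red points are the 4 members. Timmdc1 (1.53 and 1.22) and Fam81a (0.997 and 1.12) lie in the upper right, Rbm45 (-1.47 and -0.78) and Hyi (-0.86 and -1.503) in the lower left, and other genes lie farther out.

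The BACE2 difference with the transgene minus that without it was 0.69 for Rbm45 (SE 0.21), -0.65 for Hyi (SE 0.20), -0.31 for Timmdc1 (SE 0.18) and 0.13 for Fam81a (SE 0.22). These values come from the arrays that chose the members and are given with no test, so they do not show that the difference depends on the transgene in any member. Of the total variation of Timmdc1 over the 12 arrays, 91.6% lay between the BACE2 states, 4.49% between transgene states, 1.16% in their interaction and 2.73% between arrays of a group. For Fam81a the share between BACE2 states was 93.0%, for Hyi 87.3% and for Rbm45 82.5%. The median gene had 6.93% of its variation between BACE2 states and 72% between arrays of a group. Since the members were selected on their BACE2 differences, a larger share than that of the median gene was built in.

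The transgene was the comparison whose average over both BACE2 states the selection did not use. Of the members, 0 of 4 were called, against 0.0078% of all genes, and 3 of 4 had an unadjusted p under 0.05, as had 7.59% of all genes. These p-values rest on the same spread within groups as the BACE2-loss calls. A small spread in the members lowers both, so the p-values are not independent of the selection. Timmdc1 differed by -0.31 (SE 0.09, 95% confidence interval -0.50 to -0.11, limma adjusted p = 0.644) and Rbm45 by -0.25 (SE 0.11, interval -0.48 to -0.02, adjusted p = 0.644). Hyi differed by 0.22 (SE 0.10, interval 0.00076 to 0.43, adjusted p = 0.656) and Fam81a by -0.03 (SE 0.11, interval -0.27 to 0.21, adjusted p = 0.942). The intervals are those of single genes and are not adjusted for the number of genes.

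Within the BACE2 states, the transgene comparisons share arrays with the comparisons that chose the members, and each is given by its own values. In hIAPP against WT, 0 of 4 members were called, against 0.0156% of all genes, and 2 had an unadjusted p under 0.05, as had 4.52% of all genes. Rbm45 was at -0.59 (interval -0.92 to -0.26) and Hyi at 0.54 (interval 0.23 to 0.85), both with a limma adjusted p of 0.95. Their arrays did not overlap between hIAPP and WT, as for 9.16% of all genes. Timmdc1 (-0.15, interval -0.42 to 0.12, adjusted p = 0.95) and Fam81a (-0.10, interval -0.44 to 0.24, adjusted p = 0.966) overlapped. Of the 10 marker lists, 8 overlapped between hIAPP and WT in their mean level per array. The exceptions were 2 lists of blood cell markers. The means of the 10 macrophage markers were 6.73 to 6.99 in hIAPP and 6.11 to 6.36 in WT. Those of the 3 lymphocyte markers were 5.09 to 5.42 in hIAPP and 4.54 to 5.0 in WT. Their part in the values of Rbm45 and Hyi was not tested.

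In hIAPP/BACE2-KO against BACE2-KO, 0 of 4 members were called, and 0% of all genes (0 of 12825, with 569 genes or 4.44% at an unadjusted p under 0.05). Timmdc1 was at -0.46 (interval -0.73 to -0.19, limma adjusted p = 0.962), had an unadjusted p under 0.05 and did not overlap between the groups, as for 9.68% of all genes. Rbm45 (0.10, interval -0.23 to 0.42, adjusted p = 0.978), Hyi (-0.11, interval -0.41 to 0.20, adjusted p = 0.972) and Fam81a (0.03, interval -0.31 to 0.37, adjusted p = 0.992) overlapped. Of the 10 marker lists, 9 overlapped between these groups in their mean level per array. The exception was the 7 stellate-cell markers, at 6.22 to 7.08 in hIAPP/BACE2-KO against 5.79 to 6.06 in BACE2-KO. Their part in the value of Timmdc1 was not tested.

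**Figure D3:**
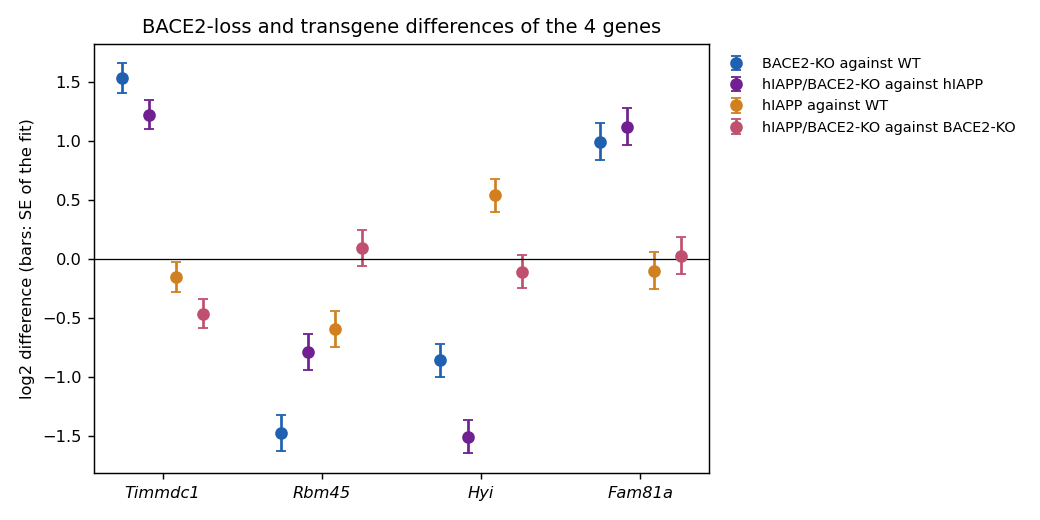
The log2 difference of each gene (vertical axis) is shown for both BACE2-loss comparisons and both transgene comparisons; points are differences of group means over 3 arrays each and bars are 1 SE of the fit. The BACE2-loss differences lie between 0.78 and 1.53 in size, and the transgene differences between 0.03 and 0.59.

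Across the 12 arrays the members followed one another in pairs of like and opposite direction. Pearson's r was 0.92 between Timmdc1 and Fam81a and 0.72 between Rbm45 and Hyi, and -0.93 between Hyi and Fam81a, -0.88 between Timmdc1 and Rbm45, -0.88 between Timmdc1 and Hyi and -0.84 between Rbm45 and Fam81a. These values share the 12 arrays and the difference on which the genes were chosen. After each genotype's mean was taken off, r over the 12 deviations was 0.68 for Timmdc1 with Hyi, -0.53 for Timmdc1 with Rbm45, -0.53 for Rbm45 with Hyi, 0.26 for Rbm45 with Fam81a, -0.26 for Hyi with Fam81a and -0.13 for Timmdc1 with Fam81a. The pair Timmdc1 and Hyi, opposite across genotypes, thus had a positive r within them.

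The genes most like each member were found by r over the 12 arrays, which hold the BACE2 difference on which the members were selected. For Timmdc1 they were Tex15 (0.96), Pdgfrl (0.96), Frg1 (0.93) and Spx (0.92), of which the first 3 lie on chromosome 8; Tex15 acts in male germ cells and Spx encodes the peptide spexin. Lowest were Sqor (-0.93), a mitochondrial sulfide quinone oxidoreductase, and Micu3 (-0.92), a regulator of mitochondrial calcium uptake that also lies on chromosome 8. The averaged BACE2 difference was 1.99 for Tex15, 0.78 for Pdgfrl, 0.50 for Frg1 and 0.36 for Spx.

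For Rbm45 the most like were Pnoc (0.94), the precursor of nociceptin, Mrap2 (0.92), an accessory protein of melanocortin receptors, Rab7 (0.91), a late endosome GTPase, and Ghrl (0.90), which encodes ghrelin. Their averaged BACE2 differences were -1.06, -0.72, -0.23 and -2.16. Nxn and Gm16740 were the least like, both at -0.92.

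For Hyi the most like were Abcg1 (0.93), a cholesterol exporter, Rab3b (0.90), a GTPase of secretory vesicles, Elavl4 (0.90), a neuronal RNA-binding protein, and Rnf150 (0.88). Rab3b and Elavl4 lie on chromosome 4 as Hyi does, with 59 and 50 tested genes in between. Star, which brings cholesterol into mitochondria, was at -0.96 and Hacd2, an enzyme of fatty acid elongation, at -0.95. Rnf150 and Star lie on chromosome 8.

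For Fam81a the most like were Ppp1r3b (0.96), a glycogen-targeting subunit of protein phosphatase 1, Star (0.94), Frg1 (0.94) and Pdgfrl (0.93). All 4 lie on chromosome 8. Lowest were Rnf150 (-0.94) and Hyi itself (-0.93). By deviations from the genotype means, different genes led: Adnp (0.98), Myod1 (0.97) and Kbtbd7 (0.96) for Timmdc1, Cgn (0.98), Slc25a33 (0.94) and Adamts10 (0.94) for Rbm45, Stk39 (0.94), Pi4kb (0.91) and Serpind1 (0.90) for Hyi, and Tcf24 (0.93), Vdac3 (0.91) and Ndufab1 (0.91) for Fam81a. These are the highest values among all genes tested, over few arrays and with no test, so an r this high can come from the search alone.

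**Figure D4:**
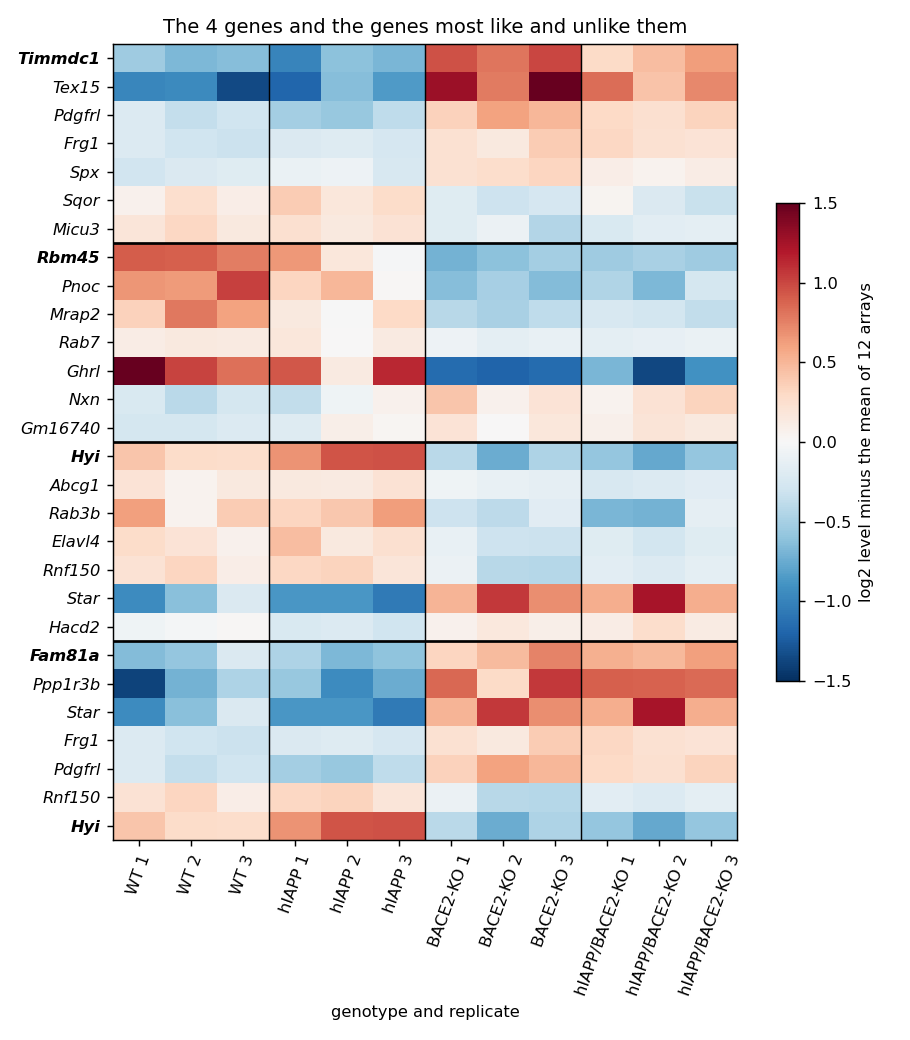
Each row is a gene and each column 1 of the 12 arrays; colour is the log2 level minus the gene's mean over the 12 arrays, with values beyond the ends of the scale drawn at its ends. Under each member (bold at the head of its block) stand its 4 most like genes and its 2 least like genes, and the change of colour falls between the 6 arrays with BACE2 and the 6 without. That change is built in, because the members were selected on it and the other genes were picked by r to them over the same arrays.

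Of the 20 nearest tested genes around each member, 10 on each side, 0 were called in BACE2-KO against WT, in hIAPP/BACE2-KO against hIAPP or in their average. Over all genes, 0.125%, 0.101% and 0.92% were called in these comparisons. At such low shares few or no calls are usual among so few genes, so the count does not set the neighbours apart. Around Timmdc1 the averaged differences ran from -0.75 to 0.29 (median 0.03), with the nearest, Pla1a and Poglut1, at -0.18 and -0.09. The largest was Arhgap31 at -0.75 (-1.20 without and -0.30 with the transgene, limma adjusted p = 0.118 for the average). That average was -0.33 when the probe sets of a gene were averaged. Bace2 lies on the same chromosome, with 151 tested genes between it and Timmdc1.

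Around Rbm45 they ran from -0.30 to 0.32 (median 0.04), with Pde11a at 0.06 and Osbpl6 at 0.29, and Lnpk, an endoplasmic reticulum junction protein, at 0.32 (adjusted p = 0.33 by limma). When the probe sets of a gene were averaged, Lnpk was at 0.09. Around Hyi the averaged differences ran from -0.44 to 0.56 (median 0.02), with Ptprf at -0.07 and Med8, a Mediator subunit, at 0.55 (SE 0.12, limma adjusted p = 0.0575), so the direct neighbour was higher where Hyi was lower. Slc6a9, a glycine transporter, was the largest at 0.56 (adjusted p = 0.172). Around Fam81a they ran from -0.05 to 0.63 (median 0.07), with Gtf2a2 at 0.07 and Myo1e, a myosin, at 0.63 (SE 0.17, limma adjusted p = 0.12). Among all these neighbours, those called in the averaged difference under any alternative setting were Med8 (4 of 21 settings), Myo1e (2 of 21), Arhgap31 (1 of 22) and Lactb (1 of 22), a mitochondrial protein at 0.47 near Fam81a (limma adjusted p = 0.07) that was named after its values were seen.

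**Figure D5:**
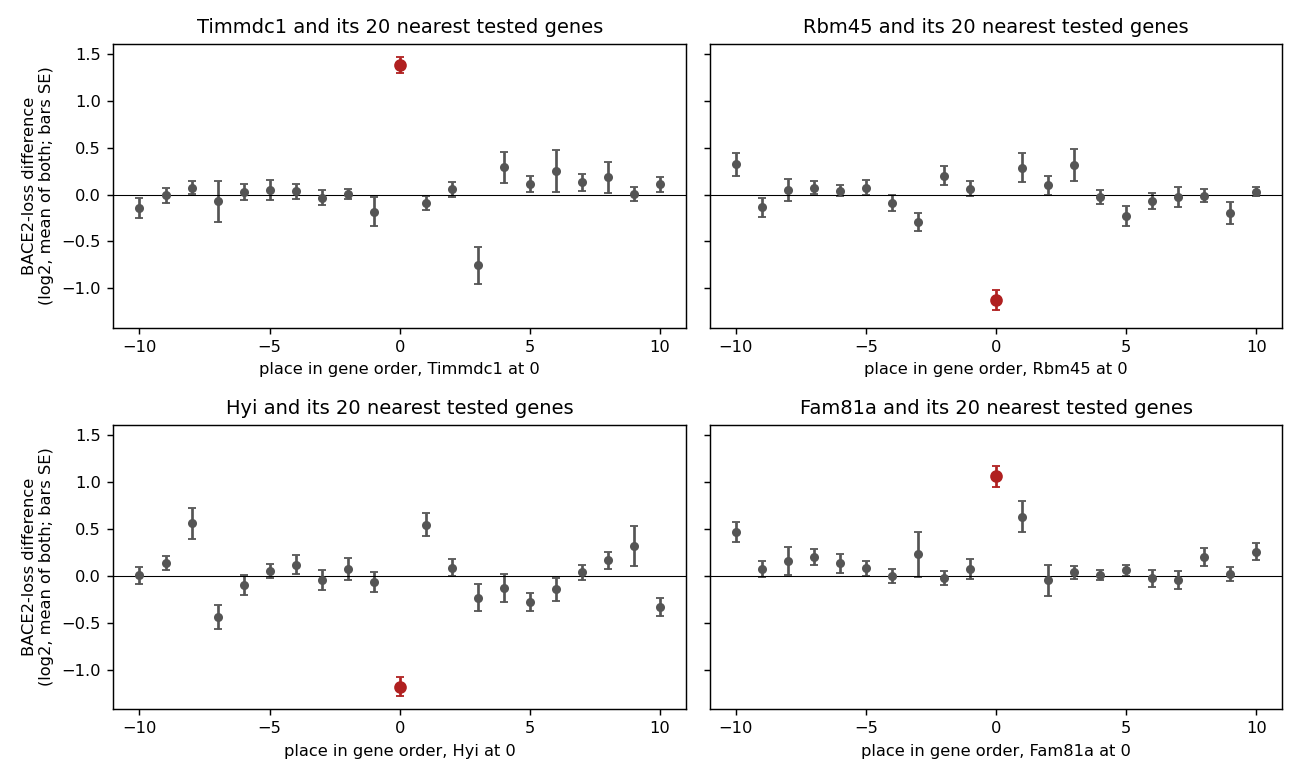
For each member (red, at 0) and its 20 nearest tested genes (grey) in RefSeq gene order, the vertical axis gives the log2 BACE2-loss difference averaged over both transgene states, with bars of 1 SE. The neighbours lie between -0.75 and 0.63, inside the members' values of 1.38 for Timmdc1, -1.13 for Rbm45, -1.18 for Hyi and 1.06 for Fam81a.

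Genes of the pathways around the members were counted in the averaged BACE2 difference, in which all tested genes had a median of 0.02, 55.7% were higher and 0.92% were called. Of the complex I assembly factors, the class to which TIMMDC1 belongs, 18 of 20 were tested, 0 were called and 10 were higher (median 0.01); Ndufaf1 was at 0.15 (SE 0.08, limma adjusted p = 0.49) and Tmem126a at 0.12. Of the complex I subunits, 32 of 36 were tested, 0 were called and 12 were higher (median -0.02), with Ndufa12 at 0.19 (called in 1 of 22 alternative settings, without WT replicate 3) and Ndufv3 at -0.13. When the probe sets of a gene were averaged, Ndufa12 was at -0.008. Of the TIM family, which imports proteins into mitochondria, 13 of 15 were tested, 0 were called and 9 were higher (median 0.04), with Timm10b at 0.16 and Pam16 at 0.10.

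Of RNA-binding proteins linked to disease, as RBM45 is, 14 of 16 were tested, 0 were called and 7 were higher (median 0.01), with Taf15 at -0.39 and Rbm15 at 0.15. When the probe sets of a gene were averaged, Taf15 was at -0.07. Of the writers, erasers and readers of m6A, a methyl mark on RNA, 15 of 16 were tested, 0 were called and 7 were higher (median -0.002), with Ythdc2 at -0.16 and Ythdf1 at -0.14. Of the KEAP1-NRF2 pathway 13 of 16 were tested, 2 were called, both higher, and 12 were higher in all (median 0.11). Srxn1, which repairs peroxiredoxins, rose by 0.36 (SE 0.07, limma adjusted p = 0.0319) and Me1, the NADPH-making malic enzyme, by 0.27 (SE 0.05, adjusted p = 0.0362). Srxn1 was called in 10 of 22 alternative settings and Me1 in 7 of 22. When the probe sets of a gene were averaged, Srxn1 was at 0.28 and Me1 at 0.18, and neither was called (limma adjusted p = 0.0781 and 0.221). With 1 array left out, Srxn1 was called without WT, hIAPP or BACE2-KO replicate 3 and Me1 without hIAPP/BACE2-KO replicate 1, and otherwise neither was. Neither was called in BACE2-KO against WT or in hIAPP/BACE2-KO against hIAPP on its own.

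Of genes of hydroxypyruvate, serine and glyoxylate metabolism, the pathway named for the putative reaction of HYI, 13 of 20 were tested, 0 were called and 10 were higher (median 0.10). Psat1 and Psph, enzymes of serine synthesis, were at 0.79 (adjusted p = 0.0957 by limma) and 0.69 (adjusted p = 0.0864). Each was called in 4 of 22 alternative settings, both of them without WT replicate 3 (0.95 and 0.81, limma adjusted p = 0.0264 and 0.0364) and with acinar markers as a covariate (0.76 and 0.67, adjusted p = 0.0239 and 0.0178). Leaving out WT replicate 1 also brought a call of Psat1 (0.58, limma adjusted p = 0.0496), and leaving out BACE2-KO replicate 1 a call of Psph (0.81, adjusted p = 0.0379). Without hIAPP/BACE2-KO replicate 3, Prodh2, a hydroxyproline dehydrogenase, was called at -0.79 (limma adjusted p = 0.0341). Of postsynaptic genes, 14 of 22 were tested, 0 were called and 7 were higher (median 0.003), with Homer3, a scaffold protein, at 0.20 and Dlg1 at -0.11. In each of the 8 lists, 0 genes were called in either BACE2-loss comparison on its own. Over all genes, 0.125% were called in BACE2-KO against WT and 0.101% in hIAPP/BACE2-KO against hIAPP.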

How the data were processed

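Expression was measured on Affymetrix mouse arrays from islets. The deposited values are log2 levels per probe set and array, which per the submitters' processing notes the authors made with RMA and affy. Versions or a build were not given in the sources used. Array medians ran from 4.22 to 4.35, and at most 2.22% of values, deposited to 2 decimals, were exactly equal between any 2 arrays. Arrays hold no read depth, and their number limits the precision. Of the probe sets, 28898 had 1 symbol in the platform annotation, 551 had several and 15692 were not listed. A gene was represented by its probe set with the highest mean (17097 genes); genes under the 25th percentile of means (3.43) were left out, and 12825 were tested. limma 3.58.1 in R 4.3.3 (lmFit, eBayes with a variance trend) fitted 1 mean per genotype to the 12 arrays, with two-sided p-values adjusted by Benjamini and Hochberg over all genes tested. The fit and calls of the averaged transgene difference were tested on simulated data with independent noise for each gene. The BACE2-loss comparisons, the choice of probe sets and the selection of members were not tested in this way. Gene order and promoters come from RefSeq (GRCm38.p6), in which 12760 tested genes had a chromosome; promoters of 3 of the 4 members were matched, and Hyi was not.

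The members and the gene and marker lists were chosen with earlier results of these data known. The genes named are the members and Bace2; for each member the 4 most and 2 least like genes and the 3 most like by deviations; the 3 genes next in the ranking; the nearest neighbours on each side, the neighbour with the largest difference and any called; and of each list those called and the 2 of smallest p. Genes named beyond this rule were chosen after their values were seen. Alternatives were other filters, normalizations, weights, probe set rules, a replicate block, an acinar covariate and leaving out each array.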

Additional observations from a re-analysis of the deposited data

How the results depend on the processing

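All 188 values of the members' BACE2-loss differences over the alternatives kept their sign. The members were selected on these differences and their arrays are separate by BACE2 state, so this was largely built in and is no support. Counts of called genes moved. With a filter at the 50th percentile, which leaves out Hyi and Fam81a, 6 genes were called in BACE2-KO against WT, 1 in hIAPP against WT and 0 in the averaged transgene difference. Median centring gave 24 in hIAPP/BACE2-KO against hIAPP, and array weights gave 36 in BACE2-KO against WT. Fitting only the arrays compared gave 9 and 3 for these comparisons (BACE2-KO against WT, then hIAPP/BACE2-KO against hIAPP), in place of 16 and 13. Testing every probe set gave 25 in hIAPP/BACE2-KO against hIAPP, 181 in the averaged BACE2 difference and 2 in the averaged transgene difference. The replicate block gave 29 in hIAPP/BACE2-KO against hIAPP and 205 in the averaged BACE2 difference, in place of 13 and 118. Between genotypes, correlations of deviations ran from -0.13 to 0.37 in the 18 same-numbered pairs of arrays, 10 of them over 0.1. In the 36 other pairs they ran from -0.44 to 0.30. Whether arrays of the same number shared a batch is not in the labels and was not tested. With the block, Arhgap31 was called in the averaged BACE2 difference (adjusted p = 0.0196 by limma) and in BACE2-KO against WT (0.0373), and 3 genes of hydroxypyruvate and glyoxylate metabolism were called in the average, Psph, Psat1 and Shmt2. Shmt2 was then also called in BACE2-KO against WT (adjusted p = 0.0424). The cause was not tested. Fam81a turned in the averaged transgene difference to 0.004 with further quantile normalization, and in hIAPP/BACE2-KO against BACE2-KO to -0.046 with acinar markers as a covariate.

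Leaving out 1 array at a time gave 5 to 16 called genes in BACE2-KO against WT, 4 to 17 in hIAPP/BACE2-KO against hIAPP, 46 to 108 in the averaged BACE2 difference, 1 to 3 in hIAPP against WT and 1 to 2 in the averaged transgene difference. Rbm45 ran from -0.927 to -0.592 in hIAPP/BACE2-KO against hIAPP. Fam81a then ran from -0.18 to 0.038 in hIAPP against WT, from -0.082 to 0.034 in the averaged transgene difference and from -0.068 to 0.15 in hIAPP/BACE2-KO against BACE2-KO. Array data give no depth, and signal over background was not used here, so precision rests on the 3 arrays of each group.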
